A study of Mus musculus with 4 samples.

Results

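The genes for the protein components of the cytosolic ribosome were measured in Lewis lung carcinoma (LLC) cells by sequencing of poly-A RNA. Members were the protein-coding genes whose symbol is Rpsa, or Rpl, Rps or Rplp followed by a number and at most a short suffix (a, l, l1 or x), which gave 82 of 35905 genes (21850 of them protein-coding). By symbol alone, 51 of these 82 genes were assigned to the large subunit and 31 to the small subunit. Paralogs such as Rpl7l1 were assigned in the same way. The naming rule does not take in every ribosomal protein gene. A list of 5 that it leaves out, among them Rps3a1, Rpl36al, Fau and Rack1, is given separately.

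The ribosome joins a small subunit, which reads the mRNA, to a large subunit, which forms peptide bonds. Each ribosome takes 1 copy of nearly every ribosomal protein, so these genes are usually expressed together and at very high levels in growing cells. Their mRNAs typically begin with a C followed by a run of C and T, the terminal oligopyrimidine tract, through which mTORC1 controls their translation. Mammalian genomes also hold many processed pseudogenes of these mRNAs, and a few members have a second gene copy (a paralog) that encodes a related protein.

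LLC is an established lung cancer line from a C57BL/6 mouse. TdTomato-positive, CD45-negative cells were sorted from primary subcutaneous flank tumours of C57BL/6 hosts 4 weeks after implantation, with 2 libraries from WT hosts and 2 from PAD4-DN hosts. WT hosts were Mrp8Cre-, Padi4fl/fl and PAD4-DN hosts were Mrp8Cre+, Padi4fl/fl, so every host carried floxed Padi4, the gene of peptidylarginine deiminase 4. Mrp8Cre is active in neutrophils, and the sorted tumour cells themselves carried no host deletion. The comparison asks whether tumour cells grown in hosts with Padi4-deleted neutrophils differ in these mRNAs.

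The libraries held 20036322 to 25327974 estimated counts. Krt8 and Krt18, keratins of simple epithelium, were at 158 to 217 CPM (counts scaled for library size) in every library, whereas the epithelial adhesion genes Epcam and Cdh1 were at most 0.342 CPM. The lung epithelial markers were also near or at 0, with Nkx2-1 at most 0.132 CPM and Sftpc at 0 counts in all 4 libraries. Of 5 fibroblast markers the summed level was 1831 and 2197 CPM (WT) versus 2571 and 2170 (PAD4-DN). One of them, Col1a1, was at 16.0 and 531 CPM (WT) versus 652 and 16.9 (PAD4-DN). For this gene WT replicate 2 and PAD4-DN replicate 1 stood apart from the others across the genotypes. Pdgfra was also highest in these libraries, by less, at 274 and 300 versus 340 and 247 CPM. Dcn (981 and 770 versus 981 and 1045 CPM), Lum (425 and 442 versus 343 and 681) and Dpt (135 and 154 versus 255 and 180) lacked this split. Summed macrophage markers (5 genes) were 34.7 and 33.9 versus 68.1 and 9.14 CPM, and erythroid markers (4 genes) 25.1 and 2.38 versus 77.3 and 1.84 CPM. Neutrophil markers (5 genes) were at 11.6 and 3.45 versus 16.3 and 6.04 CPM, and endothelial markers (4 genes) at 38.2 and 31.3 versus 65.0 and 34.8 CPM. Ptprc, which encodes CD45, was at 2.20 and 1.71 versus 5.42 and 0.713 CPM. Here and throughout, values before "versus" are those of WT replicates 1 and 2 and values after it those of PAD4-DN replicates 1 and 2.

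Ribosomal protein mRNAs held 19.98% and 17.4% of all TPM (abundance scaled for transcript length and library size) in WT replicates 1 and 2. They held 17.98% and 15.9% in PAD4-DN replicates 1 and 2. WT replicate 1 had the highest share and PAD4-DN replicate 2 the lowest, and PAD4-DN replicate 1 lay above WT replicate 2, so the genotypes overlapped. The means were 18.7% ± 1.85 in WT and 17.0% ± 1.45 in PAD4-DN (SD, n = 2 each; exact permutation test, two-sided, p = 0.667), where the smallest p that 2 libraries against 2 can give is 0.333. Counted as reads, without scaling for length, the same genes held 6.90% and 5.95% (WT) and 5.99% and 5.33% (PAD4-DN) of the estimated counts.

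Within the set, mean levels of the tested genes ran from 67.4 to 6168 TPM, and 79 of the 82 members were above 1 TPM in every library. Small subunit genes had a median of 2861 TPM over the libraries, against 1855 TPM for the large subunit genes above 1 TPM. The most abundant member was Rpl23a, a protein near the exit of the peptide tunnel, at 7056 and 6679 TPM (WT) versus 5477 and 5461 (PAD4-DN). Both PAD4-DN libraries were below both WT libraries for Rpl23a. Next came Rps27, a zinc-finger protein of the small subunit, at 5376 and 4391 TPM (WT) versus 5746 and 4691 (PAD4-DN), and here the genotypes interleaved. Rps24 followed at 5302 and 4574 TPM (WT) versus 4634 and 4593 (PAD4-DN), and Rpl26 at 5300 and 4482 versus 4024 and 3839 TPM. Also among the 5 highest of their subunit were Rpl13 and Rpl32 in the large subunit and Rps15, Rps18 and Rps6 in the small one, with means between 3692 and 4365 TPM. Rps6, the small subunit protein phosphorylated downstream of mTORC1, was at 3846 and 3663 TPM (WT) versus 3665 and 3595 (PAD4-DN), where WT replicate 2 lay just below PAD4-DN replicate 1. With its copies, which are described below, it was at 4605 and 4270 versus 3950 and 4146 TPM, without overlap. In CPM it was at 1917 and 1716 versus 1666 and 1648, also without overlap (log2 fold change -0.13, SE 0.13).

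**Figure D1:**
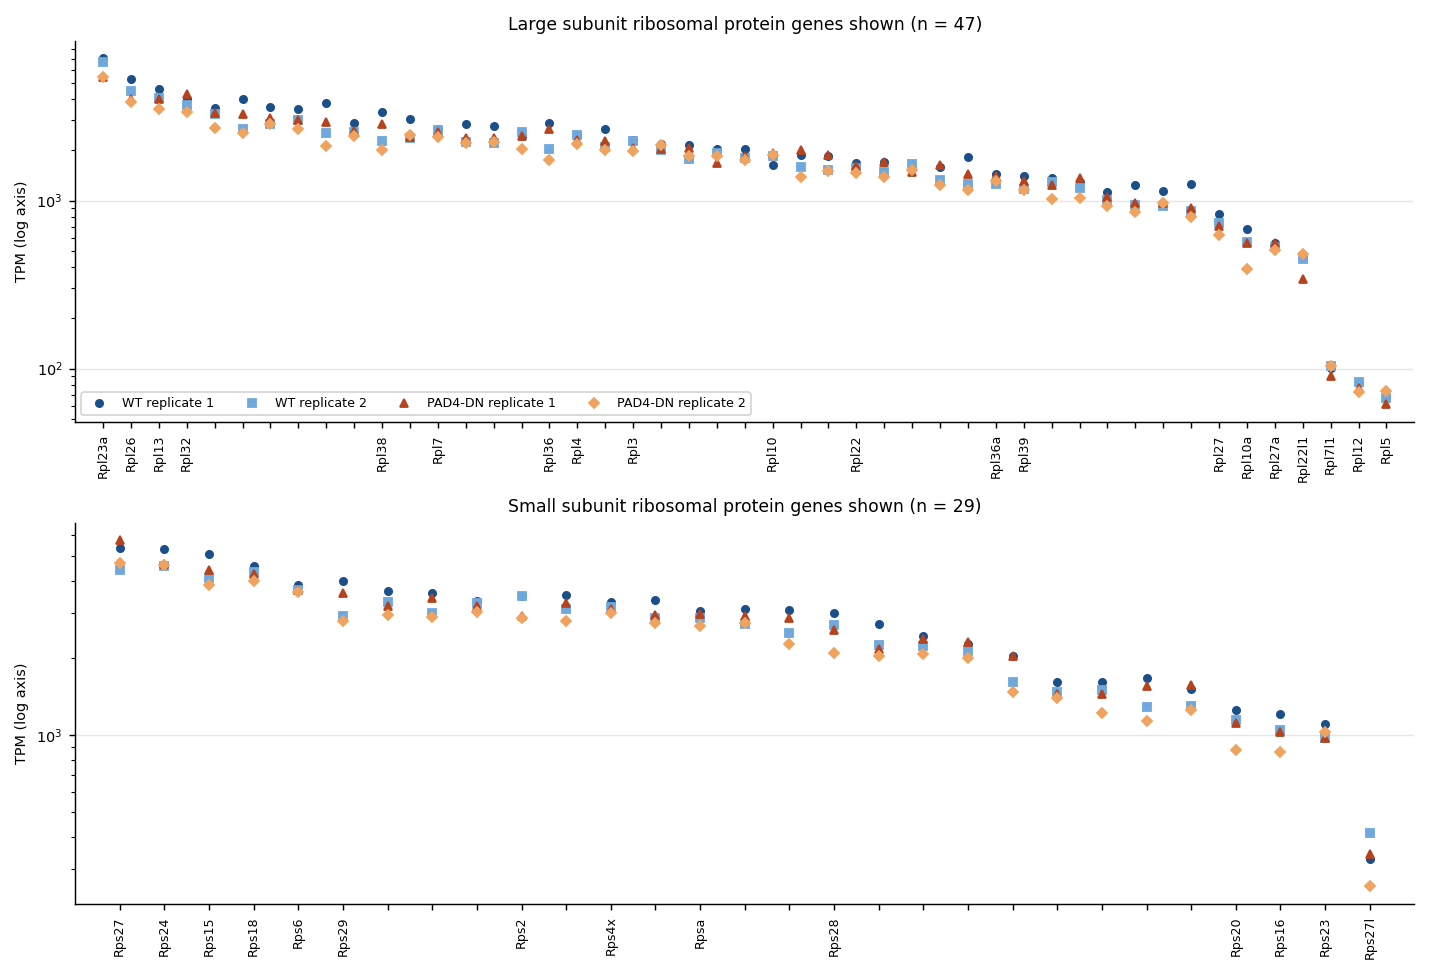
TPM on a log axis for 76 of the 79 tested genes in each of the 4 libraries, large subunit above and small subunit below, ordered by mean level, with names for the genes described in the text. Rpl23a was highest at 7056 TPM in WT replicate 1, and Rpl12 and Rpl5 were lowest with 61.3 to 83.2 TPM.

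The large subunit genes together made up 54.7% and 54.0% of ribosomal protein TPM in WT and 53.9% and 53.5% in PAD4-DN. There was no overlap, with a difference of -0.62 percentage points (exact permutation test, two-sided, p = 0.333, the smallest this design allows). The balance of the subunits was therefore not distinguishable between genotypes with this number of libraries.

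Start-site sequences were read from RefSeq promoter records on GRCm38.p6 for the 10 genes with the highest TPM (5 in each subunit). The windows of the 7 genes with a record are printed, since the tract is the feature these mRNAs are known for. Each line gives the 15 bases before and the first 15 bases from the annotated start, 5′ to 3′ on the gene's strand, and capitals mark a C followed by at least 4 C or T that begins within 10 bases of that start.
Rps6 (chr4:86857353-86857382, minus strand): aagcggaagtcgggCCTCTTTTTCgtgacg
Rps24 (chr14:24490663-24490692, plus strand): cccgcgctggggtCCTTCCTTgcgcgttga
Rps27 (chr3:90213634-90213663, minus strand): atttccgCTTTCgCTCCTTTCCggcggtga
Rps18 (chr17:33955651-33955680, minus strand): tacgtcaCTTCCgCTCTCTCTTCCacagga
Rpl13 (chr8:123102335-123102364, plus strand): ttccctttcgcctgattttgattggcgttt
Rpl26 (chr11:68901551-68901580, plus strand): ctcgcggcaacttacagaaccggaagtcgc
Rps15 (chr10:80292416-80292445, plus strand): cccggcagagctcgcgataactgcgcaagc
The Rps6 tract ran for 10 bases from 1 base before the annotated start, and the Rps24 tract for 8 bases from 2 bases before it. Rps27 and Rps18 each had a tract of 5 bases that began 8 bases before the start and a longer one that began 2 bases before it, of 9 bases in Rps27 and 11 in Rps18. The windows of Rpl13, Rpl26 and Rps15 held no tract by this rule; the pyrimidine run in Rpl13 begins farther from the start than the rule allows.

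Of 62 members with a promoter record, 39 (62.9%) had a tract by this rule, against 34.9% of the 17492 protein-coding genes with a record. The search read the gene's strand only. The share was 61.5% for large subunit genes and 65.2% for small subunit genes. A second record of Rps24, from another annotated start, held no tract, so a match depends on which start is annotated. In the genotype comparison described below, the median log2 fold change was -0.19 for the 36 tested genes with a tract and -0.21 for the 23 without, which is nearly the same value.

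A large part of the reads of some ribosomal protein genes was assigned to near-identical copies. Copies were defined as genes with at least 50% of their own 31-base words in a member, which gave 303 copies of 68 members, 293 of them annotated as pseudogenes. Of these copies 28 reached 100 counts in a library, 24 of them pseudogenes. The other 4 (Rpl10-ps3, Gm2000, Rps12-ps3 and Rps27rt) are annotated as protein-coding, though outside the naming rule. In 14 members over 20% of the counts of the gene and its copies lay in copies in every library, and in 6 (Rpl5, Rpl12, Rpl27a, Rps23, Rpl10a and Rpl27) at least 50%. Reads that match several transcripts are apportioned by kallisto's model, so the values of these genes and copies are uncertain.

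Rpl5, which binds the 5S rRNA, had 1902 and 1742 counts (WT) versus 1342 and 1963 (PAD4-DN). Its transcribed processed pseudogene Gm15500 on chromosome 7 had 45353 and 43611 counts (WT) versus 32750 and 41942 (PAD4-DN), so 95.5% to 96.2% of the counts of Rpl5 and its copies lay outside Rpl5. Rpl12, a protein at the base of the large subunit stalk, had 1114 and 1298 counts (WT) versus 879 and 993 (PAD4-DN). Its copy Gm10275 on chromosome 10 had 34555 and 32219 counts (WT) versus 27535 and 28914 (PAD4-DN). All 891 coding bases of Rpl5 were identical in Gm15500, and all 495 of Rpl12 in Gm10275. The first 60 coding bases are printed, from GENCODE M21 transcripts, to show that nothing in them tells gene and copy apart; no capital is used because no base differs.
Rpl5: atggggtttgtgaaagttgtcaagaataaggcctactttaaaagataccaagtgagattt
Gm15500: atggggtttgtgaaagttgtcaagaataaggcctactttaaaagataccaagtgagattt
Rpl12: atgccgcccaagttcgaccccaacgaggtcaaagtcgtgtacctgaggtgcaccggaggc
Gm10275: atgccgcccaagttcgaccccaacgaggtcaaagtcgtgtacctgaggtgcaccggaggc
Alone, Rpl5 and Rpl12 were the least abundant members with counts above the filter, at 61.3 to 74.0 and 72.5 to 83.2 TPM. With their copies they were at 3145 to 3527 and 4326 to 4944 TPM. Their means of 3354 and 4648 TPM lay above 3301 TPM, the upper quartile of the members above 1 TPM with copies added.

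**Figure D2:**
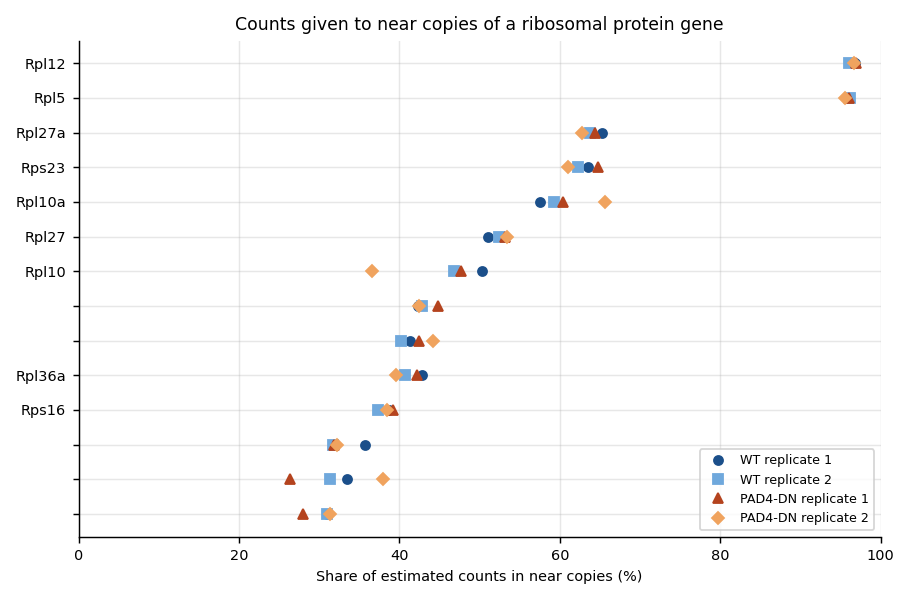
Share of estimated counts that lay in near copies (percent, from 0 to 100) for the 14 members above 20% in every library, 1 point per library, with names for the genes described in the text. Rpl12 and Rpl5 sat at 95.5% to 96.9%, and Rpl10 was the most spread, from 36.6% in PAD4-DN replicate 2 to 50.3% in WT replicate 1.

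Adding the copies raised the ribosomal protein share to 24.3% and 21.04% of TPM in WT and 21.8% and 19.4% in PAD4-DN, in the same order of libraries. It also narrowed the gap between the subunits, to medians of 2374 TPM for the large and 3136 TPM for the small subunit. Over the members, a median of 39.6% of the 31-base words of the most counted transcript were unique to the gene. The share ran from 1.27% in Rps27 to 100% in Rpl3l, which had 0 to 2 counts and missed the low-count filter. Values of Rps27 therefore rest on few distinguishing bases.

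Within the genes, 93.0% to 93.4% of member counts lay in transcripts annotated as protein-coding. Transcripts annotated for nonsense-mediated decay held 4.44% to 4.76%, and those with a retained intron 1.48% to 1.70%. A few genes, picked after their values were seen, stood out from this. Retained-intron transcripts held 84.3% to 86.4% of the counts of Rps16 and 61.0% to 63.1% of those of Rps20. Transcripts annotated for decay held 76.5% to 79.5% of the counts of Rpsa, the laminin receptor homologue of the small subunit. These shares were close in all 4 libraries. Where a short noncoding transcript repeats most of the coding one, the assignment is an estimate.

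By edgeR's quasi-likelihood test 0 of the 79 tested ribosomal protein genes passed for a difference between PAD4-DN and WT (smallest adjusted p = 0.988). The background in the same fit was 0 of 13718 genes called (0%), with 364 genes (2.65%) at an unadjusted p under 0.05. Among the members 2 genes, Rpl23a and Rps2, had an unadjusted p under 0.05, both lower in PAD4-DN, against 1.42% of all genes in that direction. DESeq2 and limma-voom also called 0 members, with 6 and 2 of them at an unadjusted p under 0.05.

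The fold changes, none of them called, lay mostly on one side. Of the 79 genes 77 were below 0 on the log2 scale (PAD4-DN minus WT), against 48.5% of all genes tested. Their median was -0.21, against 0.01 over all genes, with -0.22 for the large subunit (47 of 48 below 0) and -0.20 for the small subunit (30 of 31). In CPM both PAD4-DN libraries were below both WT libraries for 39 genes (22 large, 17 small), against 17.4% of all genes tested. They were above both WT libraries for 0 genes, against 15.4%. For the other 40 genes the libraries overlapped. In TPM at most 32 of the 79 genes could separate in this way, because PAD4-DN replicate 1 was below WT replicate 2 for only that number. Without WT replicate 1 the median of the members was -0.05, with 54 of 79 genes below 0, and without WT replicate 2 it was -0.33; 0 members were called in either fit. The genes share libraries and are not replicates. In bulk samples fewer cells of a type and less RNA per cell cannot be told apart.

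**Figure D3:**
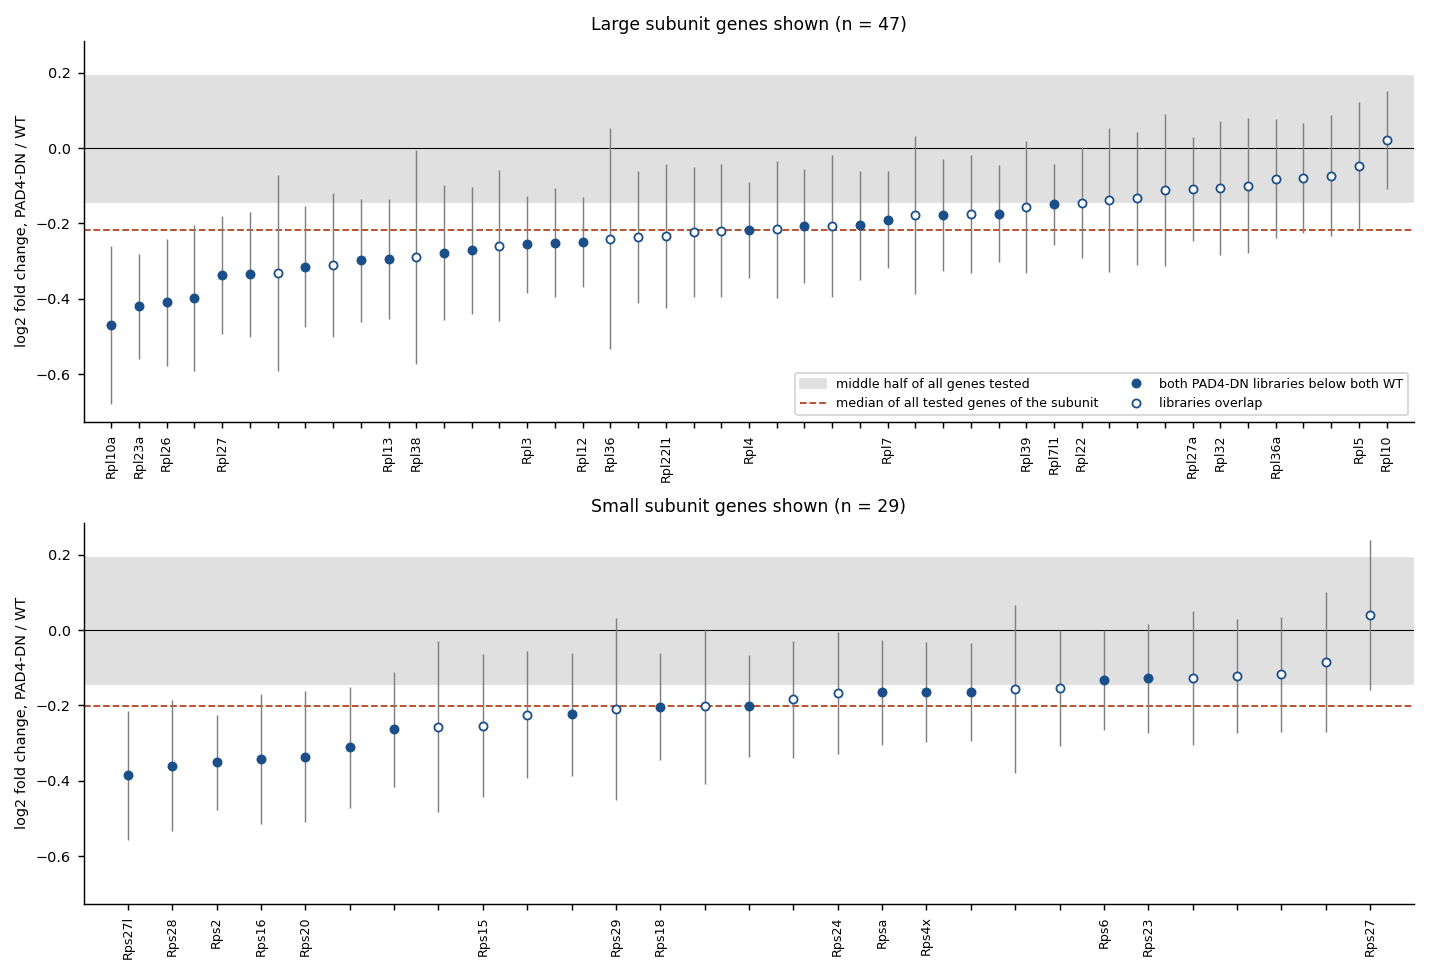
Log2 fold change of 76 of the 79 tested genes with its standard error, large subunit above and small subunit below, and the median of all tested genes of the subunit as a dashed line. Filled points mark the genes whose PAD4-DN libraries were both below both WT libraries in CPM. Rpl10a was lowest at -0.47, and Rpl10 and Rps27 were above 0, Rpl10 only as long as its copies were left out.

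In the large subunit the smallest unadjusted p belonged to Rpl23a, at 1813 and 1581 CPM (WT) versus 1262 and 1275 (PAD4-DN). Its fold change was -0.42 (SE 0.14), and its PAD4-DN libraries lay close together, well below WT. Rpl26, a protein that also binds p53 mRNA, was at 1229 and 952 CPM (WT) versus 834 and 809 (PAD4-DN), a fold change of -0.41 (SE 0.17). The gap between its WT libraries was wider than the gap between the lower WT library and PAD4-DN. Rpl10a was at 297 and 242 versus 227 and 162 CPM, Rpl27 at 251 and 206 versus 191 and 171 CPM, and Rpl12 at 49.0 and 51.5 versus 42.9 and 41.6 CPM. These last 3 genes have most of their reads in copies. With copies added, their fold changes moved from -0.47, -0.34 and -0.25 to -0.31, -0.29 and -0.14.

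In the small subunit Rps2, a protein of the mRNA entry channel, came first, at 2052 and 1938 CPM (WT) versus 1573 and 1556 (PAD4-DN) (fold change -0.35, SE 0.13). WT averaged 1995 ± 81.1 CPM and PAD4-DN 1564 ± 11.9 CPM (SD, n = 2 each), so the libraries of each genotype lay close together and apart from the other genotype. Rps28 was at 397 and 319 versus 302 and 256 CPM, with WT replicate 1 the highest library. Rps27l, the paralog of Rps27 and a p53 target, was at 70.4 and 81.4 CPM (WT) versus 65.9 and 50.4 (PAD4-DN), and here WT replicate 2 was the highest.

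The members above 0 were Rpl10 and Rps27. Rpl10, which completes the large subunit late in assembly, was at 595 and 613 CPM (WT) versus 602 and 623 (PAD4-DN), a fold change of 0.02 (SE 0.13) that became -0.14 once the copies were added. Rps27 was at 581 and 424 versus 556 and 477 CPM, a fold change of 0.04 (SE 0.20). The libraries of both genes overlapped.

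The size of the difference depended on WT replicate 1. That library was the highest library for 75 of the 79 genes in CPM, and PAD4-DN replicate 2 was the lowest for 64. The median log2 difference within WT, replicate 1 minus replicate 2, was 0.26, larger than the median between genotypes. Within PAD4-DN the same difference was 0.14. Between the genotypes, PAD4-DN replicate 1 differed from WT replicate 1 by a median of -0.27, with 78 of 79 genes below, and from WT replicate 2 by -0.02, with 45 below. PAD4-DN replicate 2 differed from WT replicate 1 by -0.40, with 78 below, and from WT replicate 2 by -0.13, with 69 below. In TPM the median for PAD4-DN replicate 1 minus WT replicate 2 was 0.04, with 32 of 79 genes below, and the other 3 medians were between -0.31 and -0.11.

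In both genotypes replicate 1 tended to exceed replicate 2 by more in genes whose most counted transcript was shorter. Which transcript is most counted rests on kallisto's assignment, also for genes with counts in copies or in noncoding transcripts. Rpl38, with a most counted transcript of 371 bases, was at 413 and 251 CPM (WT) versus 313 and 229 (PAD4-DN). Rps29, at 390 bases, was at 545 and 358 CPM (WT) versus 432 and 349 (PAD4-DN), and Rpl36, at 383 bases, at 383 and 239 versus 314 and 213 CPM. In these 3 genes, chosen after their values were seen, replicate 1 was above replicate 2 in both genotypes. The long mRNA of Rpl4 (1538 bases), also chosen after its values were seen, was narrow in both genotypes. It was at 2462 and 2313 CPM (WT) versus 2097 and 2007 (PAD4-DN). Not every gene followed this. Rpl10 (648 bases) was narrow, at 595 and 613 versus 602 and 623 CPM. Rpl5 (2045 bases) was wide, at 83.6 and 69.1 versus 65.5 and 82.3 CPM, although both these genes have reads in copies.

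Across the 79 genes Spearman's rho between transcript length and the log2 CPM difference was -0.47 for WT replicate 1 minus replicate 2 and -0.43 for PAD4-DN replicate 1 minus replicate 2. It was 0.12 for the genotype fold change. Between single libraries it was 0.47 for PAD4-DN replicate 2 minus WT replicate 1 and -0.41 for PAD4-DN replicate 1 minus WT replicate 2. For same-numbered libraries, PAD4-DN minus WT, it was 0.10 (replicate 1) and -0.05 (replicate 2). These are descriptions over genes that share their libraries. The median of length minus effective length over long transcripts, which follows the fragment length used in the authors' quantification, was 223.9 bases in WT replicate 1 and 236.8 to 239.4 bases in the other libraries. With effective lengths as offsets in edgeR the median of the members was -0.21. The part of RNA quality, of the other cell types whose markers are given above and of fragment length in these differences was not tested.

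**Figure D4:**
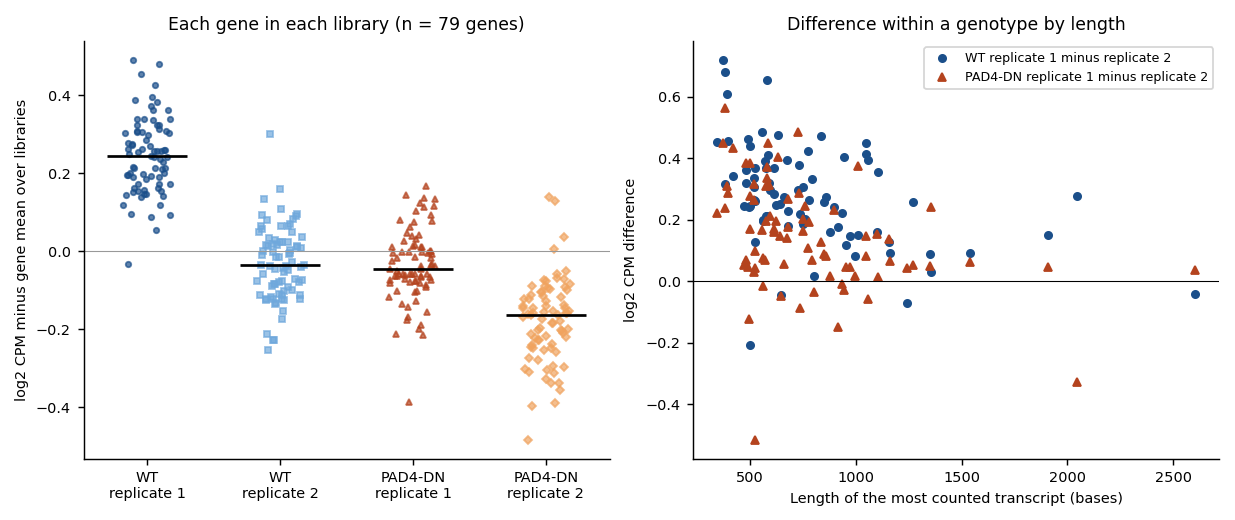
Left, log2 CPM of each of the 79 genes in each library minus that gene's mean over the libraries, with the median as a bar; right, the log2 difference between the 2 libraries of each genotype against the length of the most counted transcript in bases. WT replicate 1 sits at a median of 0.25 and PAD4-DN replicate 2 at -0.16, and the largest differences within a genotype are among the shorter transcripts.

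Of 8 paralog pairs listed, 4 had both genes at measurable levels and 4 had a minor gene at or near 0. Rpl10l, which replaces Rpl10 in the male germ line, had 0 counts in every library, which allows up to 3 counts, or 0.119 to 0.146 CPM, for counting error only. Rpl3l, the striated muscle form of Rpl3, had 0 and 1 counts (WT) versus 2 and 0 (PAD4-DN), and Rpl39l, a testis form of Rpl39, had 0 and 1 in WT and 0 in both PAD4-DN libraries. These 3 members missed the low-count filter and were not tested. Rps4l, annotated as a transcribed processed pseudogene of Rps4x and so no member, had 0 and 7 counts (WT) versus 5 and 0 (PAD4-DN). The counterparts were abundant, with Rpl3 at 1971 and 1854 versus 1629 and 1574 CPM, Rpl39 at 415 and 321 versus 350 and 311 CPM, and Rps4x at 1884 and 1703 versus 1625 and 1574 CPM.

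The coding sequences of Rpl39l and Rpl10l differ from those of their abundant counterparts. The first 60 coding bases are shown for the pairs that align without a gap, with capitals at the bases that differ within a pair.
Rpl39: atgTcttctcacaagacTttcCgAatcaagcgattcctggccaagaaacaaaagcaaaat
Rpl39l: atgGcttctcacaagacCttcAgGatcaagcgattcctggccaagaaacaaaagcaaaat
Rpl10: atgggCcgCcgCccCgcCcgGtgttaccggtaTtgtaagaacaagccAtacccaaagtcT
Rpl10l: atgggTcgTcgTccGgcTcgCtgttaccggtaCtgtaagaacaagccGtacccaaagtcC
Rpl36a: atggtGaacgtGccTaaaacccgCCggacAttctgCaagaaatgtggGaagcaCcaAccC
Rpl36al: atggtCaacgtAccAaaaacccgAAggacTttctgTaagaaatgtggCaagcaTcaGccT
Rps27: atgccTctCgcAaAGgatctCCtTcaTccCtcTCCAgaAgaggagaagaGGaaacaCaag
Rps27l: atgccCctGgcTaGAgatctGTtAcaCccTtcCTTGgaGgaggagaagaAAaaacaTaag
In these stretches Rpl39 and Rpl39l differ at 4 bases, Rpl10 and Rpl10l at 9, Rpl36a and Rpl36al at 11, and Rps27 and Rps27l at 18. Over the whole coding sequence identity was 85.0%, 84.4%, 87.7% and 76.2% in the same order. It was 74.5% for Rpl3 and Rpl3l, 70.8% for Rpl22 and Rpl22l1 and 59.8% for Rpl7 and Rpl7l1 over the aligned bases. Rpl39 and Rpl39l share 8 words of 31 bases in their coding sequences, and the other pairs aligned share 0.

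For the 4 measurable pairs the minor gene's share of the pair's TPM was compared over libraries. Rpl22l1, a paralog with a separate regulatory role in blood cell development, held 21.7% and 22.3% of its pair in WT and 17.4% and 24.7% in PAD4-DN, so PAD4-DN was wider than WT on both sides. Rpl7l1, a factor related to Rpl7, held 3.66% and 3.74% in WT and 3.42% and 4.12% in PAD4-DN, again with WT inside the PAD4-DN range. Rpl36al held 40.4% and 42.0% in WT and 39.9% and 40.5% in PAD4-DN, with the genotypes overlapping. With the copies of Rpl36a added, these became 20.7% and 22.5% against 20.6% and 22.5%, and the sign of the difference reversed. Rps27l held 5.78% and 8.68% in WT and 5.67% and 5.20% in PAD4-DN, and was the one pair without overlap (exact permutation test, two-sided, p = 0.333, adjusted p = 1.0 over 4 pairs). The WT replicates of Rps27l differed from each other by more than WT replicate 1 differed from either PAD4-DN library. The other 3 pairs had exact permutation p from 0.667 to 1.0.

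**Figure D5:**
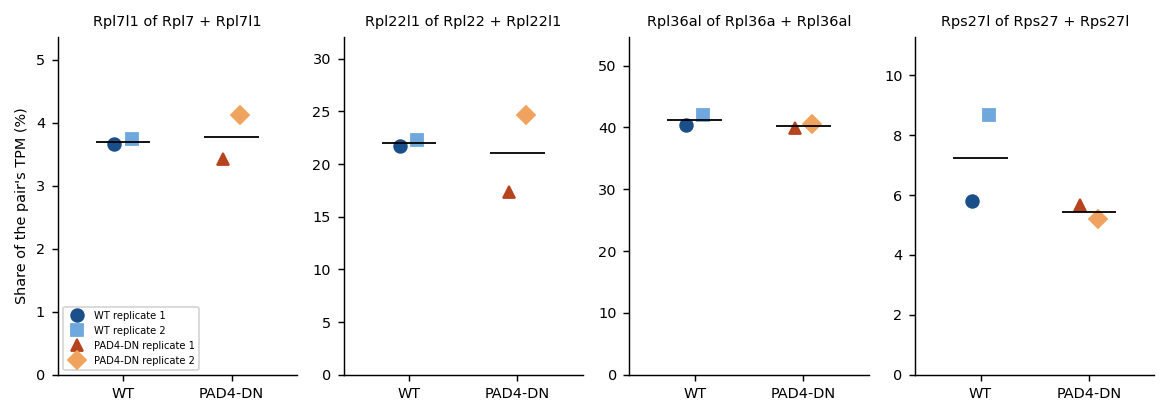
Share of the pair's TPM (percent, axis from 0) held by the minor gene of each of 4 paralog pairs, with each library as a point and the group mean as a bar. Only for Rps27l do the libraries of the genotypes not overlap, with 5.78% and 8.68% in WT and 5.67% and 5.20% in PAD4-DN. WT replicate 1 lies close to PAD4-DN replicate 1 there (exact permutation test, two-sided, p = 0.333, the smallest this design allows).

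In CPM Rpl22l1 was at 110 and 101 in WT and 73.9 and 106 in PAD4-DN, and Rpl22 at 428 and 361 versus 363 and 350. Rpl7l1 was at 116 and 119 CPM (WT) versus 107 and 104 (PAD4-DN), with Rpl7 at 1898 and 1780 versus 1648 and 1576. Both genes of the Rpl7 pair had PAD4-DN below WT in all comparisons of libraries, with fold changes of -0.15 (SE 0.11) for Rpl7l1 and -0.19 (SE 0.13) for Rpl7. Rpl36a was at 289 and 232 versus 252 and 240 CPM.

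The listed ribosomal protein genes outside the symbol pattern were 5 of 5 below 0 (48.5% over all genes), and 0 of them were called. Their median was -0.31 (-0.03 and 3 of 5 below 0 without WT replicate 1). Rack1, the scaffold protein on the head of the small subunit, was at 1486 and 1303 CPM (WT) versus 1143 and 1042 (PAD4-DN) (fold change -0.35, SE 0.14), without overlap. Fau, which encodes Rps30 fused to a ubiquitin-like protein, was at 728 and 420 versus 513 and 356 CPM, and there the WT libraries differed by more than the group means did. Rps3a1 was at 2236 and 1936 versus 1879 and 2020 CPM, and Rpl36al at 228 and 196 versus 194 and 190 CPM.

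Other genes of the translation machinery were set beside the members from lists chosen by function. Over all genes tested 48.5% were below 0. In CPM both PAD4-DN libraries were below both WT libraries in 17.4% of all genes and above them in 15.4%. Each list's counts, also in CPM, are read beside these shares. The list of initiation and elongation factors also held Naca, Btf3, Tpt1 and Pabpc1. It had 30 of 35 genes below 0 and a median of -0.14, with 18 below in both PAD4-DN libraries and 1 above. Eif3g and Eif3d, subunits of the initiation factor eIF3, were at 96.3 and 90.4 versus 77.7 and 76.8 CPM and at 270 and 242 versus 200 and 208 CPM. Ribosome biogenesis and RNA polymerase I genes had 34 of 36 below 0 and a median of -0.19, with 22 below in both PAD4-DN libraries and 0 above. Bop1 and Nop2, factors of large subunit rRNA maturation, were at 51.3 and 47.4 versus 36.9 and 39.2 CPM and at 99.3 and 84.5 versus 74.8 and 70.2 CPM. In all 4 of these genes the genotypes did not overlap. Without WT replicate 1 the median of the biogenesis list was -0.17, beside -0.05 for the members in the same fit, a difference that was not tested. The biogenesis genes below 0 were 30 to 36 of 36 with 1 library left out. The factors were at -0.09 (27 of 35 below 0) without WT replicate 1, at -0.09 (22 of 35) without PAD4-DN replicate 1, and at -0.19 (30) and -0.22 (31) without the second WT and PAD4-DN libraries.

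Mitochondrial ribosomal proteins, which form a separate ribosome, had 70 of 78 genes below 0 and a median of -0.14, with 35 below in both PAD4-DN libraries and 3 above, beside the same background shares of 48.5%, 17.4% and 15.4%. With 1 library left out the median ran from -0.20 to -0.14, and the genes below 0 were 69 and 66 of 78 without WT replicate 1 and 2 and 64 and 59 without PAD4-DN replicate 1 and 2. Their smallest p-values belonged to Mrpl38, at 42.9 and 41.1 CPM (WT) versus 31.1 and 29.4 (PAD4-DN), and to Mrpl23, at 3.78 and 4.08 versus 2.00 and 1.80 CPM. Regulators of the mTORC1 and MYC pathways were more evenly placed, with 12 of 21 below 0 and a median of -0.09 that turned to 0.01 without WT replicate 1. The mTORC1 inhibitor Sesn2 was at 29.6 and 30.5 CPM (WT) versus 20.2 and 22.3 (PAD4-DN), and Rptor, the mTORC1 subunit raptor, at 91.2 and 94.9 versus 81.2 and 77.1 CPM. In these 5 lists 0 genes were called by edgeR, and the numbers at an unadjusted p under 0.05 were 3 for biogenesis, 4 for mitochondrial ribosomal proteins, 1 for the regulators and 0 for the other lists, with 2.65% as the background over all genes.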

How the data were processed

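RNA from 4 libraries (2 WT, 2 PAD4-DN) was analysed; per the labels' protocols, libraries were strand-specific poly-A libraries read from 1 end. The submitters' processing notes name kallisto and GRCm39; versions, annotation and settings were not given in the sources used here. The authors deposited, per the file headers, transcript length and effective length, estimated counts that are not normalized, and TPM. Values were summed per gene with GENCODE M21 symbols. That annotation is on an earlier build, so start-site coordinates are RefSeq's on GRCm38.p6. Of 117486 transcripts 1078 matched no gene and were left out, with 0.483% to 0.493% of counts.

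Summed estimated counts were rounded to whole numbers and tested over 13718 genes with edgeR 4.0.16 in R 4.3.3 (filterByExpr, TMM, quasi-likelihood test, two-sided, Benjamini-Hochberg adjustment at 0.05, no replicate block). CPM values use TMM-scaled library sizes. Shares were compared by exact permutation over libraries. Scripts were tested on simulated data. Alternatives were DESeq2 1.42.0, limma 3.58.1 (voom, and trend on log2(TPM + 1)), other scalings and filters, a replicate block, effective length offsets, a fit on protein-coding genes, copies added to their parents and each library left out. Adding near copies by sequence and crossing the replicate numbers were chosen after seeing the data.

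The members and the lists were chosen with earlier results of these data known. Genes were named by rule: the 5 highest by TPM and the 5 with the smallest p per direction in each subunit. All paralogs and all members missing the filter were named too. From the other lists came the 2 with the smallest p of each and all 5 listed ribosomal proteins outside the pattern. A few genes that the rule names are not reported here and are left out of the figures that name genes. No source used here ties the replicates to separate animals or tumours. The p-values therefore cover only the spread between the libraries, which may be technical. PCR reads carried no molecular identifiers, so a limit from counts covers counting error only.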

Additional observations from a re-analysis of the deposited data

How the results depend on the processing

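The members called numbered 0 in all 19 alternatives. Over all genes, DESeq2 called 10 genes on every gene with a count and 11 after the filter, and edgeR called 10 without the low-count filter. Leaving out 1 library gave 0 to 2 called genes (2 without WT replicate 2, 1 with PAD4-DN replicate 1 left out). The members' median ran from -0.33 to -0.053 with 1 library left out, and that of the large subunit from -0.34 to -0.051; both highest values were without WT replicate 1. With limma-trend on log2(TPM + 1) the members' median was -0.12 and that over all genes 0.06. In fits that leave out a library, the lone library is assumed to vary like the others.

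Some single genes changed sign. Leaving out 1 library moved Rpl10 from -0.0091 to 0.041, Rpl32 from -0.28 to 0.038, Rps27 from -0.17 to 0.28, Rps24 from -0.33 to 0.010, Rpl36a from -0.23 to 0.087, Rpl39 from -0.33 to 0.039, Fau from -0.75 to 0.050 and Rps3a1 from -0.20 to 0.0098. Rpl10 was at -0.14 with copies added by name or by sequence, and Rpl36a at 0.012 with limma-trend. The Rpl36al share difference became 0.021 and 0.020 percentage points with copies added by name and by sequence. Leave-one-out differences ran from -0.28 to 0.42 points for Rpl7l1 and from -4.61 to 2.69 for Rpl22l1. The cause was not tested.

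With the replicate number as a block, 0 genes were called and the members' median was -0.20, so the block changed no call. The correlation of deviations between same-numbered libraries was -0.31 over all tested genes and 0.36 over the members, and the labels do not say that numbers pair the libraries. With crossed pairs 0 genes were called.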
